A study of Homo sapiens with 42 samples.

Results

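The transcription factor NRF2 and the genes it is known to control were examined as a set of 34 genes, chosen by symbol, out of 34318 genes with summed reads. The choice was made with earlier results of these data known. Shares of the set set beside shares of all genes are therefore a description and not a test of the set. The set holds NFE2L2, which encodes NRF2, its partners and antagonists, and enzymes of glutathione, NADPH, thioredoxin, haem and iron metabolism and of detoxification. Polyadenylated RNA was sequenced in 42 libraries, 3 for each of 14 groups, in a study of what perturbing RNA polymerase III (Pol III) does to transcripts of protein-coding genes. THP-1 cells, a line from a human monocytic leukaemia grown as monocytes, received the Pol III inhibitor ML-60218 at 25 uM for 4 h together with cycloheximide (CHX), a blocker of protein synthesis, at 10 ug per ml for 4.5 h; CHX alone; ML-60218 alone; or DMSO. In HEK293T, a human embryonic kidney line, cells were transfected for 48 h with an antisense oligonucleotide (ASO) against the Pol III subunit gene POLR3G or a scrambled ASO (200 nM), a POLR3G siRNA or a control siRNA (200 nM), or 1 of 3 siRNAs against its paralog POLR3GL (siE4, siE6 and siE8) or a control siRNA (25 nM). A further HEK293T pair overexpressed MAF1, a repressor of Pol III, or eGFP for 48 h, and its plasmids went in with a different lipid reagent from that of the oligonucleotides. The labels do not say that replicates came from separate cultures, so each p-value speaks of the scatter between sequenced samples, which may be technical.

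NRF2 is made continuously and in resting cells is bound by KEAP1, an adaptor that hands it to a CUL3 ubiquitin ligase for degradation. Oxidants and electrophiles modify cysteines of KEAP1, newly made NRF2 then accumulates, pairs with a small MAF protein such as MAFG and binds antioxidant response elements near genes for antioxidant and detoxifying enzymes. BACH1, a haem-binding repressor, occupies many of the same elements, and HMOX1, the haem oxygenase that splits haem into biliverdin, iron and carbon monoxide, is the textbook gene that it holds down.

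The markers of each line were found where the labels put them. Transcripts of 10 monocytic markers summed to 5028 to 7003 TPM (a level corrected for transcript length and library size) in the 12 THP-1 libraries, against 3.45 to 44.4 TPM in the 30 HEK293T libraries. Transcripts of 9 HEK293T markers summed to 182 to 649 TPM in HEK293T libraries, against 2.74 to 4.99 TPM in THP-1 libraries. POLR3G was 2.81-fold lower with the POLR3G ASO and 2.38-fold lower with the POLR3G siRNA, POLR3GL was 11.8-fold, 10.2-fold and 13.1-fold lower with siE4, siE6 and siE8, and MAF1 was 74.7-fold higher with its plasmid. With the POLR3G siRNA, MAF1 was also 5.07-fold lower (9.84 ± 0.675 CPM, against 50 ± 1.3 CPM with the control siRNA; CPM are a gene's reads scaled to library size within each experiment), and its part in the values below was not tested. The paralog moved as well: POLR3GL was 1.36-fold lower with the ASO and 1.49-fold lower with the POLR3G siRNA, and POLR3G was 1.8-fold, 1.48-fold and 1.91-fold lower with siE4, siE6 and siE8. All levels are relative to the rest of a bulk library, in which fewer cells and less RNA per cell cannot be told apart.

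Levels in the set ran from 0.379 to 5743 TPM in DMSO-treated THP-1 cells. The ferritin genes FTL and FTH1, whose products store iron, stood at 5743 and 1366 TPM, and GPX1, a glutathione peroxidase, at 636 TPM. HMOX1 stood at 4.29 TPM, ABCC1, an efflux pump for glutathione conjugates, at 1.71 TPM and AKR1C1, an aldo-keto reductase, at 0.379 TPM. In the 12 control libraries of HEK293T, PRDX1, a peroxiredoxin, averaged 953 TPM, TXN, thioredoxin, 545 TPM and SOD1, the cytosolic superoxide dismutase, 542 TPM. Between the 3 DMSO libraries of THP-1 and the HEK293T controls, 11 of the 34 genes did not overlap and were higher in THP-1, 14 did not overlap and were higher in HEK293T, and 9 overlapped, described here with no test because the lines were grown and handled apart. The share of all genes that did not overlap between the lines was not computed, so these counts cannot be read as a trait of the set. FTL was 16.5-fold, CAT, catalase, 8.26-fold and MAFG 6.54-fold higher in THP-1, whereas AKR1B1, aldose reductase, was 4.45-fold, HMOX1 3.67-fold and SOD1 3.65-fold higher in HEK293T. FTH1, FTL and the AKR1C genes have close copies in the genome among which reads are divided by estimation, so their levels carry the error of that division.

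In THP-1 cells, ML-60218 raised a subset of the target genes and none of the 4 regulators passed the test. Against DMSO, 13 of 34 genes were called at an adjusted p under 0.05 by edgeR's quasi-likelihood test, adjusted after Benjamini and Hochberg across every gene tested (38.2%; 15.5% of all 15327 genes tested were called), 11 of them higher (8.48% of all genes) and 2 lower (7.05%). The median log2 fold change was 0.070 over the 34 genes and -0.009 over all genes. The groups did not overlap for 21 of the 34 (33.2% of all genes). By role, 3 of 5 genes of haem and iron metabolism, 2 of 4 of glutathione synthesis and recycling and 2 of 4 of NADPH supply rose. In the thioredoxin and the oxidant-removal groups 1 of 5 genes rose. Of the 6 detoxification genes 1 rose and 2 fell, and OSGIN1, which stands alone in its group, rose. Without ML-60218 replicate 1 or replicate 2 the count of called genes was 8, as it was with no filter on low counts, and 7 genes (GCLM, PGD, ME1, SRXN1, HMOX1, FTH1 and NQO1) kept their call under each of 12 alternatives.

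**Figure D1:**
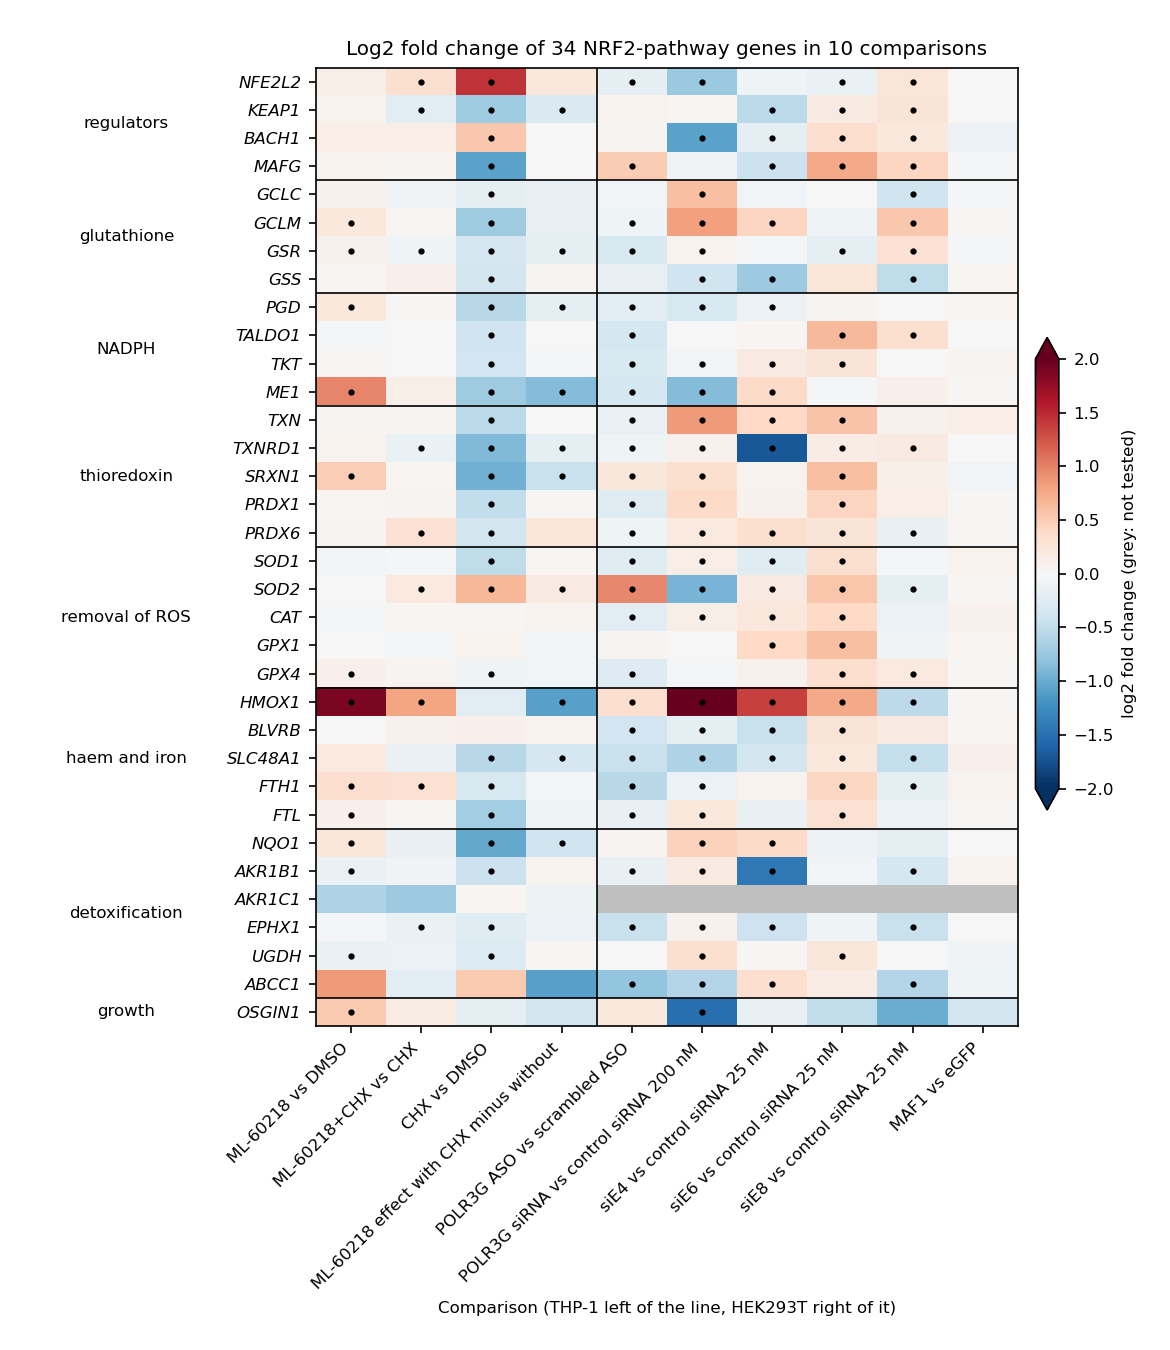
Log2 fold change (colour, treated over control) of the 34 genes, in rows by role, in 10 comparisons, in columns, where the fourth column is the difference between the ML-60218 effects with and without CHX; dots mark genes called at an adjusted p under 0.05 and grey cells were not tested. HMOX1 is called in 7 of the 9 pairs of groups, and the MAF1 column holds no dot.

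HMOX1 changed most. It stood at 14.3, 18.1 and 15.4 CPM in ML-60218 libraries, against 3.88, 4.21 and 4.88 CPM in DMSO libraries. Every ML-60218 library lay far above every DMSO library, a 3.68-fold difference (log2 1.88 ± 0.127, adjusted p = 3.51e-06). ME1, the cytosolic malic enzyme, which makes NADPH, was measured at 49.8, 54.4 and 50.3 CPM in ML-60218 libraries, against 24.9, 27.2 and 26.4 CPM in DMSO libraries. All 3 treated libraries lay near 1.97 times the level of the controls (log2 0.98 ± 0.0484, adjusted p = 4.79e-07). These 2 were the only members called with a fold of at least 1.5, as 1.70% of all genes were among higher ones and 0.463% among lower ones.

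The remaining rises were smaller. SRXN1, sulfiredoxin, which repairs overoxidised peroxiredoxins, had 25.1, 27.5 and 25.1 CPM in ML-60218 libraries, against 18, 19.2 and 18.1 CPM in DMSO libraries (log2 0.49 ± 0.0602, adjusted p = 0.000215). NQO1, a quinone reductase and the classic NRF2 readout, had 30.7, 31.5 and 32.8 CPM in ML-60218 libraries, against 27.2, 28.2 and 24.7 CPM in DMSO libraries (log2 0.25 ± 0.0528, adjusted p = 0.00691). GCLM, the modifier subunit of the enzyme that starts glutathione synthesis, had 76.7, 80 and 80.3 CPM in ML-60218 libraries, against 67.3, 70.3 and 68.2 CPM in DMSO libraries (log2 0.20 ± 0.0319, adjusted p = 0.00101). In all 3 genes the treated libraries were the higher ones and did not overlap the controls. FTH1 rose 1.27-fold (log2 0.34 ± 0.0394) and PGD, an NADPH-producing enzyme of the pentose phosphate pathway, 1.16-fold (log2 0.22 ± 0.0356). The calls of GSR (glutathione reductase, log2 0.09 ± 0.0256), GPX4 (the peroxidase for lipid hydroperoxides, log2 0.11 ± 0.0325), FTL (log2 0.11 ± 0.0284) and OSGIN1 (an oxidative stress-induced growth inhibitor, log2 0.52 ± 0.156) were weaker. That of GSR was lost under 8 of 12 alternatives, among them when any 1 of DMSO replicates 1 and 3 and ML-60218 replicates 1 and 3 was left out (adjusted p = 0.0299 to 0.125 over the alternatives). That of GPX4 was lost under 6 of 12 alternatives, among them when any 1 of DMSO replicates 2 and 3 and ML-60218 replicates 2 and 3 was left out (adjusted p = 0.0274 to 0.149 over the alternatives). That of FTL was lost under 4 of 12 alternatives, among them when any 1 of DMSO replicate 2 and ML-60218 replicates 1 and 2 was left out (adjusted p = 0.00206 to 0.124 over the alternatives). That of OSGIN1 was lost under 8 of 12 alternatives, among them when any 1 of DMSO replicates 1 and 3 and ML-60218 replicates 1, 2 and 3 was left out (adjusted p = 0.0209 to 0.358 over the alternatives).

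TXNRD1, the cytosolic thioredoxin reductase, did not follow the other textbook targets. It had 226, 222 and 221 CPM in ML-60218 libraries, against 217, 220 and 202 CPM in DMSO libraries (log2 0.06 ± 0.0347, adjusted p = 0.258). NFE2L2 itself had 135, 143 and 130 CPM in ML-60218 libraries, against 127, 128 and 123 CPM in DMSO libraries (log2 0.11 ± 0.0437, adjusted p = 0.112). In both genes each treated library was above each control. KEAP1 had 73.6, 72.3 and 69.6 CPM in ML-60218 libraries, against 70.8, 69 and 65.4 CPM in DMSO libraries (log2 0.07 ± 0.0431, adjusted p = 0.321), and its libraries overlapped. BACH1 had 112, 119 and 111 CPM in ML-60218 libraries, against 104, 107 and 100 CPM in DMSO libraries (log2 0.13 ± 0.0444, adjusted p = 0.0671). MAFG had 268, 271 and 262 CPM in ML-60218 libraries, against 261, 246 and 256 CPM in DMSO libraries (log2 0.07 ± 0.0288, adjusted p = 0.129). Means of NFE2L2, BACH1 and MAFG, whose groups did not overlap, were above the controls by 1.05-fold to 1.09-fold. BACH1 was called with DESeq2 and with only those 2 groups in the fit (range of adjusted p = 0.0359 to 0.239 over the alternatives). AKR1B1 (log2 -0.13 ± 0.0372) and UGDH, which makes the donor for glucuronidation (log2 -0.13 ± 0.0401), were called lower. The call of AKR1B1 was lost under 6 of 12 alternatives, among them when any 1 of DMSO replicate 1 and ML-60218 replicates 1, 2 and 3 was left out (adjusted p = 0.0279 to 0.114 over the alternatives). The call of UGDH was lost under 9 of 12 alternatives, among them when any 1 of DMSO replicates 1 and 2 and ML-60218 replicates 1, 2 and 3 was left out (adjusted p = 0.00829 to 0.294 over the alternatives). ABCC1, named after its values were seen, had 5.34, 4.09 and 5.37 CPM in ML-60218 libraries, against 3.28, 2.39 and 2.57 CPM in DMSO libraries. Its treated libraries were the higher ones but it missed the threshold (log2 0.85 ± 0.308, adjusted p = 0.0855) and, like BACH1, was called with DESeq2 and with only those 2 groups in the fit (range 0.0084 to 0.52).

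Of 76 further genes of the pathway, 72 were tested and 15 called with ML-60218 against DMSO (20.8%; 15.5% of all genes), 8 higher (11.1%; 8.48% of all genes) and 7 lower (9.72%; 7.05% of all genes). SLC7A11, the cystine importer that feeds glutathione synthesis, had 21.2, 26.8 and 19.1 CPM in ML-60218 libraries, against 8.43, 9.57 and 10.4 CPM in DMSO libraries, a rise of 2.37-fold (log2 1.24 ± 0.151, adjusted p = 0.000191). SQSTM1, the autophagy receptor that can sequester KEAP1, had 150, 169 and 135 CPM in ML-60218 libraries, against 85.3, 86 and 80.9 CPM in DMSO libraries, a rise of 1.8-fold (log2 0.85 ± 0.0702, adjusted p = 1.4e-05). Neither gene overlapped between groups. SLC3A2, the partner chain of the cystine importer, was 1.41-fold higher (log2 0.50 ± 0.123, adjusted p = 0.0155), a call lost under 3 of 12 alternatives, when any 1 of DMSO replicates 2 and 3 and ML-60218 replicate 2 was left out (adjusted p = 0.00484 to 0.0711 over the alternatives). SLC40A1, the iron exporter ferroportin, fell 1.48-fold (log2 -0.57 ± 0.0483, adjusted p = 1.75e-05) and SESN3, a sestrin, fell 1.43-fold (log2 -0.52 ± 0.0598, adjusted p = 0.000136).

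Promoter sequence was set beside these rises. The core of the antioxidant response element, TGACNNNGC, was searched on both strands in RefSeq windows (GRCh38.p14) from 250 bases before to 50 after each start site, and overlaps the AP-1 motif, TGACTCA, where GC follows it. It occurred in 13.3% of all 35116 windows and in 16.1% of 27305 genes with a window. Of the 34 genes 26 had a window, and 6 of these (23.1%) held the motif: PGD, GCLM, EPHX1, ME1, TXNRD1 and KEAP1. Of the 11 genes called higher with ML-60218, 8 had a window and 3 of these held the motif, HMOX1, FTH1 and GSR having no window in the table. The windows of SRXN1 and NQO1 did not hold these letters, which says nothing of sequence outside the windows. Among the other members 3 of 18 held it (EPHX1, TXNRD1 and KEAP1), and their windows are not shown. A match describes the letters of a window and is not a binding site. The 3 windows of genes that rose are shown because ME1, GCLM and PGD all rose and kept their calls, with the motif in capitals, as TGACNNNGC or its reverse complement, for ME1 at chr6:83431002-83431301 (minus strand), GCLM at chr1:93909381-93909680 (minus strand) and PGD at chr1:10398814-10399113 (plus strand).
ME1: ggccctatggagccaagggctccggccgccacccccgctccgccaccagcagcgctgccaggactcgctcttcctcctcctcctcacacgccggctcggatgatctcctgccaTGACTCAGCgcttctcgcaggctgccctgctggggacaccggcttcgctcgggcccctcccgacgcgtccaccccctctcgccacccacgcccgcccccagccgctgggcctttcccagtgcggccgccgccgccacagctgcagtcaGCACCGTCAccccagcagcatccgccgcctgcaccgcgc
GCLM: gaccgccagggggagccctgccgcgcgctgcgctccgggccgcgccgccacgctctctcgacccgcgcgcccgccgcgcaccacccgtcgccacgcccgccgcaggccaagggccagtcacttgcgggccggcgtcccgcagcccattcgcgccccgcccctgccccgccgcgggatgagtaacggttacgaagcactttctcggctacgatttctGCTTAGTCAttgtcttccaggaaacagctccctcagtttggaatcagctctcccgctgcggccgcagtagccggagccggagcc
PGD: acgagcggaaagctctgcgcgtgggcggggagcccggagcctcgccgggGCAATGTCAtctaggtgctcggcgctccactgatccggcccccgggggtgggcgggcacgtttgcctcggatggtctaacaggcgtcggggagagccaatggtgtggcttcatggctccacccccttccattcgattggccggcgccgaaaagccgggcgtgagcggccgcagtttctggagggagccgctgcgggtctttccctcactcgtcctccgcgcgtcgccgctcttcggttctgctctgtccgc

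CHX alone moved most of the set, and downward in CPM. Against DMSO, 27 of 34 genes were called (79.4%; 66.0% of all genes), 3 higher (33.5% of all genes) and 24 lower (70.6%; 32.5% of all genes). The median log2 fold change was -0.366 over the set and -0.006 over all genes, and the groups did not overlap for 27 of the 34 (69.6% of all genes). With a fold of at least 1.5, 2 were called higher (14.6% of all genes) and 8 lower (12.1%). All 4 genes of glutathione metabolism, all 4 of NADPH supply and all 5 of the thioredoxin group fell, as did 3 of 5 of haem and iron, 4 of 6 of detoxification and 2 of 5 of oxidant removal. In TPM, which entered no test, some of these genes were not lower. GCLC stood at 31.5 ± 0.906 TPM with CHX, against 28.7 ± 1 TPM, and FTH1 at 1408 ± 75.5, against 1366 ± 35.2 TPM. Others were lower in both measures, NQO1 standing at 12.7 ± 0.832 TPM, against 20.2 ± 0.898 TPM. All but 1 of the 27 calls held under every alternative, and that of GPX4 (log2 -0.09 ± 0.0327) was lost under 3 of 12 alternatives, among them when any 1 of DMSO replicate 1 and CHX replicate 3 was left out (adjusted p = 0.0242 to 0.137 over the alternatives).

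NFE2L2 went the other way from most of its targets. It had 354, 322 and 352 CPM in CHX libraries, against 127, 128 and 123 CPM in DMSO libraries, 2.72-fold higher (log2 1.44 ± 0.0434, adjusted p = 2.02e-11). BACH1 rose as well, with 156, 143 and 154 CPM in CHX libraries, against 104, 107 and 100 CPM in DMSO libraries (log2 0.54 ± 0.0441, adjusted p = 1.9e-07). Every CHX library lay above every DMSO library for both. MAFG had 122, 124 and 119 CPM in CHX libraries, against 261, 246 and 256 CPM in DMSO libraries (log2 -1.07 ± 0.0296, adjusted p = 1.02e-11). KEAP1 had 44.9, 40.4 and 40.2 CPM in CHX libraries, against 70.8, 69 and 65.4 CPM in DMSO libraries (log2 -0.71 ± 0.0443, adjusted p = 1.35e-08). The MAF partner and the adaptor KEAP1 were lower in each CHX library. The mitochondrial superoxide dismutase SOD2 rose too, at 335, 323 and 333 CPM in CHX libraries, against 210, 206 and 211 CPM in DMSO libraries (log2 0.66 ± 0.0363, adjusted p = 3.89e-09).

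Among the targets, NQO1 had 12.9, 13.7 and 13 CPM in CHX libraries, against 27.2, 28.2 and 24.7 CPM in DMSO libraries (log2 -1.02 ± 0.0551, adjusted p = 3.46e-09). SRXN1 had 8.97, 9.27 and 10.1 CPM in CHX libraries, against 18, 19.2 and 18.1 CPM in DMSO libraries (log2 -0.97 ± 0.0629, adjusted p = 1.91e-08). TXNRD1 had 114, 116 and 116 CPM in CHX libraries, against 217, 220 and 202 CPM in DMSO libraries (log2 -0.89 ± 0.0355, adjusted p = 2.21e-10). These 3 genes were 1.85-fold to 2.02-fold lower, with each CHX library under each DMSO library. GCLM had 41.9, 40.7 and 43.1 CPM in CHX libraries, against 67.3, 70.3 and 68.2 CPM in DMSO libraries (log2 -0.71 ± 0.033, adjusted p = 8.19e-10). ME1 had 15.9, 15.3 and 16.7 CPM in CHX libraries, against 24.9, 27.2 and 26.4 CPM in DMSO libraries (log2 -0.71 ± 0.0512, adjusted p = 5.14e-08). FTL had 1767, 1877 and 1865 CPM in CHX libraries, against 3016, 2908 and 2974 CPM in DMSO libraries (log2 -0.69 ± 0.0286, adjusted p = 2.9e-10). Each of them fell by 1.61-fold to 1.64-fold, again without overlap. HMOX1 overlapped between groups, at 4.12, 3.39 and 3.53 CPM in CHX libraries, against 3.88, 4.21 and 4.88 CPM in DMSO libraries (log2 -0.23 ± 0.133, adjusted p = 0.148). CAT (log2 0.03 ± 0.029) and GPX1 (log2 0.07 ± 0.0331) did not pass either. In TPM both were higher with CHX without overlap, CAT at 313 to 330, against 252 to 260, and GPX1 at 819 to 879, against 623 to 654. Of the further pathway genes 55 of 72 were called (76.4%; 66.0% of all genes), 14 higher and 41 lower. The largest falls were of SLC7A11 (3.12-fold, log2 -1.64 ± 0.166), LRP8, a selenoprotein receptor (2.68-fold, log2 -1.42 ± 0.0411), and CUL3, the ligase scaffold that KEAP1 serves (2.57-fold, log2 -1.36 ± 0.0338). TFRC, the transferrin receptor, fell 2.48-fold (log2 -1.31 ± 0.0502), while SLC3A2 rose 2.51-fold (log2 1.33 ± 0.121). The ML-60218 and CHX comparisons share their DMSO libraries.

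With protein synthesis blocked, HMOX1, FTH1 and NFE2L2 itself were among the genes that ML-60218 raised. In ML-60218+CHX against CHX, 9 of 34 genes were called (26.5%; 16.5% of all genes), 5 higher (8.75% of all genes) and 4 lower (7.75%). The median log2 fold change was 0.032 over the set and -0.005 over all genes, and the groups did not overlap for 19 of the 34 (34.6% of all genes). HMOX1, NFE2L2, FTH1, PRDX6 and SOD2 rose and kept their calls under every alternative.

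HMOX1 had 6.56, 7.13 and 5.47 CPM in ML-60218+CHX libraries, against 4.12, 3.39 and 3.53 CPM in CHX libraries. The treated libraries stayed above the controls, by 1.73-fold (log2 0.79 ± 0.13, adjusted p = 0.00144), and this was the only called member to reach 1.5-fold, as 1.37% of all genes did among higher ones and 0.685% among lower ones. NFE2L2 had 426, 421 and 444 CPM in ML-60218+CHX libraries, against 354, 322 and 352 CPM in CHX libraries (log2 0.33 ± 0.0416, adjusted p = 0.000255) and was higher in each ML-60218+CHX library than in any CHX library. FTH1 was 1.23-fold higher (log2 0.30 ± 0.0395), PRDX6, a peroxiredoxin, 1.22-fold (log2 0.28 ± 0.0498) and SOD2 1.14-fold (log2 0.19 ± 0.0358). KEAP1 had 35.7, 35.8 and 36.2 CPM in ML-60218+CHX libraries, against 44.9, 40.4 and 40.2 CPM in CHX libraries (log2 -0.22 ± 0.0455, adjusted p = 0.00554), a fall lost under 1 of 12 alternatives, with the length offset (adjusted p = 0.00101 to 0.0728 over the alternatives). TXNRD1 had 106, 100 and 109 CPM in ML-60218+CHX libraries, against 114, 116 and 116 CPM in CHX libraries (log2 -0.13 ± 0.036, adjusted p = 0.0231), a fall lost under 4 of 12 alternatives, when any 1 of CHX replicates 1, 2 and 3 and ML-60218+CHX replicate 2 was left out (adjusted p = 0.0141 to 0.0771 over the alternatives). The falls of GSR (log2 -0.09 ± 0.026) and EPHX1, a microsomal epoxide hydrolase (log2 -0.14 ± 0.041), were slight. That of GSR was lost under 11 of 12 alternatives, among them when any 1 of CHX replicates 1, 2 and 3 and ML-60218+CHX replicates 2 and 3 was left out (adjusted p = 0.0378 to 0.125 over the alternatives). That of EPHX1 was lost under 9 of 12 alternatives, among them when any 1 of CHX replicates 1 and 2 and ML-60218+CHX replicates 1, 2 and 3 was left out (adjusted p = 0.0326 to 0.125 over the alternatives).

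**Figure D2:**
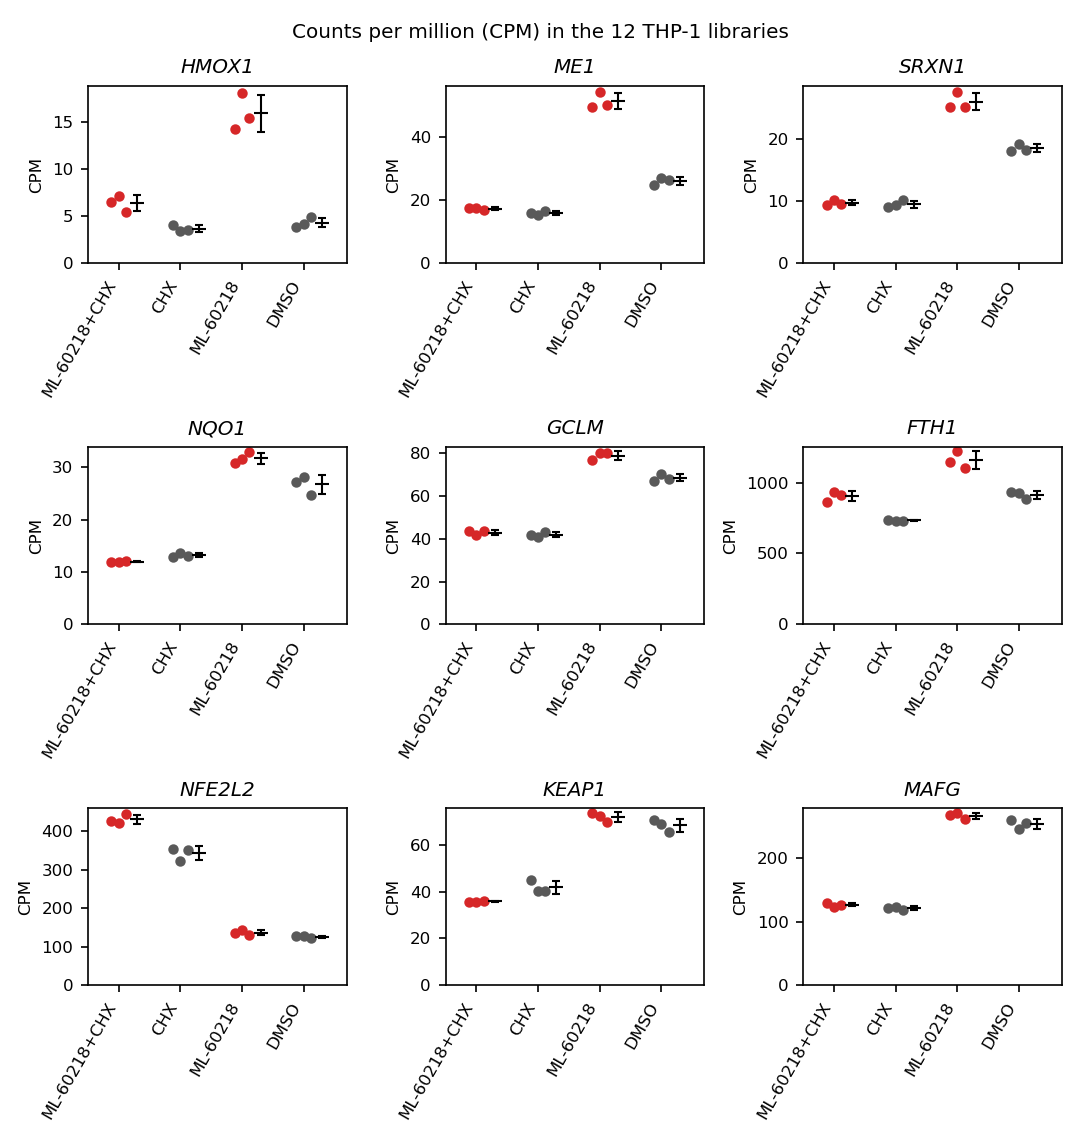
CPM of 9 genes in each THP-1 library, with ML-60218+CHX, CHX, ML-60218 and DMSO from left to right; dots are libraries (red where ML-60218 was given), and black marks show mean ± SD (n = 3). HMOX1 reaches 14.3 to 18.1 CPM with ML-60218 and 5.47 to 7.13 CPM with ML-60218+CHX, and ME1, SRXN1 and NQO1 stand above DMSO with ML-60218 alone.

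The other textbook targets did not pass. SRXN1 had 9.42, 10.2 and 9.49 CPM in ML-60218+CHX libraries, against 8.97, 9.27 and 10.1 CPM in CHX libraries (log2 0.04 ± 0.0642, adjusted p = 0.756). GCLM had 43.6, 41.8 and 43.5 CPM in ML-60218+CHX libraries, against 41.9, 40.7 and 43.1 CPM in CHX libraries (log2 0.04 ± 0.0335, adjusted p = 0.522). NQO1 had 11.9, 11.9 and 12.1 CPM in ML-60218+CHX libraries, against 12.9, 13.7 and 13 CPM in CHX libraries (log2 -0.14 ± 0.0567, adjusted p = 0.106). Libraries of SRXN1 and GCLM overlapped, and those of NQO1 lay slightly lower with ML-60218+CHX. BACH1 had 171, 156 and 167 CPM in ML-60218+CHX libraries, against 156, 143 and 154 CPM in CHX libraries (log2 0.13 ± 0.0431, adjusted p = 0.0624). MAFG had 129, 124 and 127 CPM in ML-60218+CHX libraries, against 122, 124 and 119 CPM in CHX libraries (log2 0.06 ± 0.0298, adjusted p = 0.198). Libraries of MAFG overlapped, while those of BACH1 touched without overlap. BACH1 was called with DESeq2 and without ML-60218+CHX replicate 2 (range of adjusted p = 0.0232 to 0.276 over the alternatives). Of the further pathway genes 20 of 72 were called (27.8%; 16.5% of all genes), 8 higher and 12 lower. SQSTM1 had 243, 273 and 274 CPM in ML-60218+CHX libraries, against 160, 154 and 161 CPM in CHX libraries, 1.67-fold higher (log2 0.74 ± 0.0674, adjusted p = 2.59e-05), SLC3A2 rose 1.64-fold (log2 0.71 ± 0.113) and TFRC 1.28-fold (log2 0.35 ± 0.0507). TXNIP, the thioredoxin-binding protein, fell 1.31-fold (log2 -0.39 ± 0.0402). GGT1, which cleaves extracellular glutathione (log2 -0.39 ± 0.109), fell with overlapping libraries, a call lost under 6 of 12 alternatives, among them when any 1 of CHX replicates 1 and 2 and ML-60218+CHX replicates 2 and 3 was left out (adjusted p = 0.00454 to 0.242 over the alternatives).

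The difference between the ML-60218 effects with and without CHX was tested directly. Of the 34 genes 10 were called (29.4%; 6.56% of all genes), 9 with a lower effect in the presence of CHX (26.5%; 3.70% of all genes) and 1 with a higher one (2.86% of all genes), with a median of -0.057 over the set and 0.006 over all genes. Of the further pathway genes 7 of 72 were called (9.72%; 6.56% of all genes), 3 higher and 4 lower, with the largest difference for SLC7A11 among those averaging at least 5 CPM (log2 -1.06 ± 0.23, adjusted p = 0.0175), a call lost under 2 of 17 alternatives, among them when CHX replicate 3 was left out (adjusted p = 0.000485 to 0.0544 over the alternatives). The difference was largest in size for HMOX1 among called members (log2 -1.09 ± 0.181, adjusted p = 0.00522), followed by ME1 (log2 -0.86 ± 0.0711, adjusted p = 0.000106) and SRXN1 (log2 -0.45 ± 0.088, adjusted p = 0.0115). GSR, at the small end, differed by log2 -0.17 ± 0.0365, adjusted p = 0.0157. These 4 calls held under every alternative. With CHX the effect was 0.11 for ME1, 0.04 for SRXN1 and 0.79 for HMOX1 on the log2 scale, against 0.98, 0.49 and 1.88 without it.

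NQO1 (log2 -0.39 ± 0.0774, adjusted p = 0.0118) and KEAP1 (log2 -0.29 ± 0.0627, adjusted p = 0.0166) also differed. The call of NQO1 was lost under 1 of 17 alternatives, with the length offset (adjusted p = 0.00455 to 0.0514 over the alternatives), and that of KEAP1 was lost under 1 of 17 alternatives, with the length offset (adjusted p = 0.00322 to 0.0751 over the alternatives). TXNRD1 (log2 -0.20 ± 0.05, adjusted p = 0.035), PGD (log2 -0.19 ± 0.0509, adjusted p = 0.0454), SLC48A1, a haem transporter (log2 -0.33 ± 0.0872, adjusted p = 0.0435), and SOD2 (log2 0.19 ± 0.0511, adjusted p = 0.0488) were borderline. The call of TXNRD1 was lost under 7 of 17 alternatives, among them when any 1 of DMSO replicate 1 and CHX replicates 1 and 3 and ML-60218 replicates 1 and 2 was left out (adjusted p = 0.0118 to 0.0844 over the alternatives). The call of PGD was lost under 12 of 17 alternatives, among them when any 1 of DMSO replicates 1 and 3 and CHX replicates 1 and 3 and ML-60218 replicates 1, 2 and 3 and ML-60218+CHX replicates 1 and 3 was left out (adjusted p = 0.0146 to 0.091 over the alternatives). The call of SLC48A1 was lost under 15 of 17 alternatives, among them when any 1 of DMSO replicates 1, 2 and 3 and CHX replicates 1, 2 and 3 and ML-60218 replicates 1 and 2 and ML-60218+CHX replicates 1, 2 and 3 was left out (adjusted p = 0.043 to 0.151 over the alternatives). The call of SOD2 was lost under 14 of 17 alternatives, among them when any 1 of DMSO replicates 1, 2 and 3 and CHX replicates 1, 2 and 3 and ML-60218 replicates 1, 2 and 3 and ML-60218+CHX replicates 1, 2 and 3 was left out (adjusted p = 0.00973 to 0.302 over the alternatives). The count of 10 fell to 5 with an offset for transcript length and to 6 without any one of DMSO replicate 1, CHX replicates 1 and 3 and ML-60218 replicate 1. NFE2L2 (log2 0.22 ± 0.0603, adjusted p = 0.0516) and GCLM (log2 -0.17 ± 0.0462, adjusted p = 0.0515) lay just outside the threshold, NFE2L2 being called with DESeq2, with no filter on low counts and without ML-60218 replicate 2, and GCLM without CHX replicate 2. Over the alternatives adjusted p ran 0.00948 to 0.148 (NFE2L2) and 0.0342 to 0.117 (GCLM). BACH1 (log2 -0.00233 ± 0.0619, adjusted p = 0.991) and MAFG (log2 -0.01 ± 0.0415, adjusted p = 0.943) were near 0, and their signs turned under some alternatives.

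**Figure D3:**
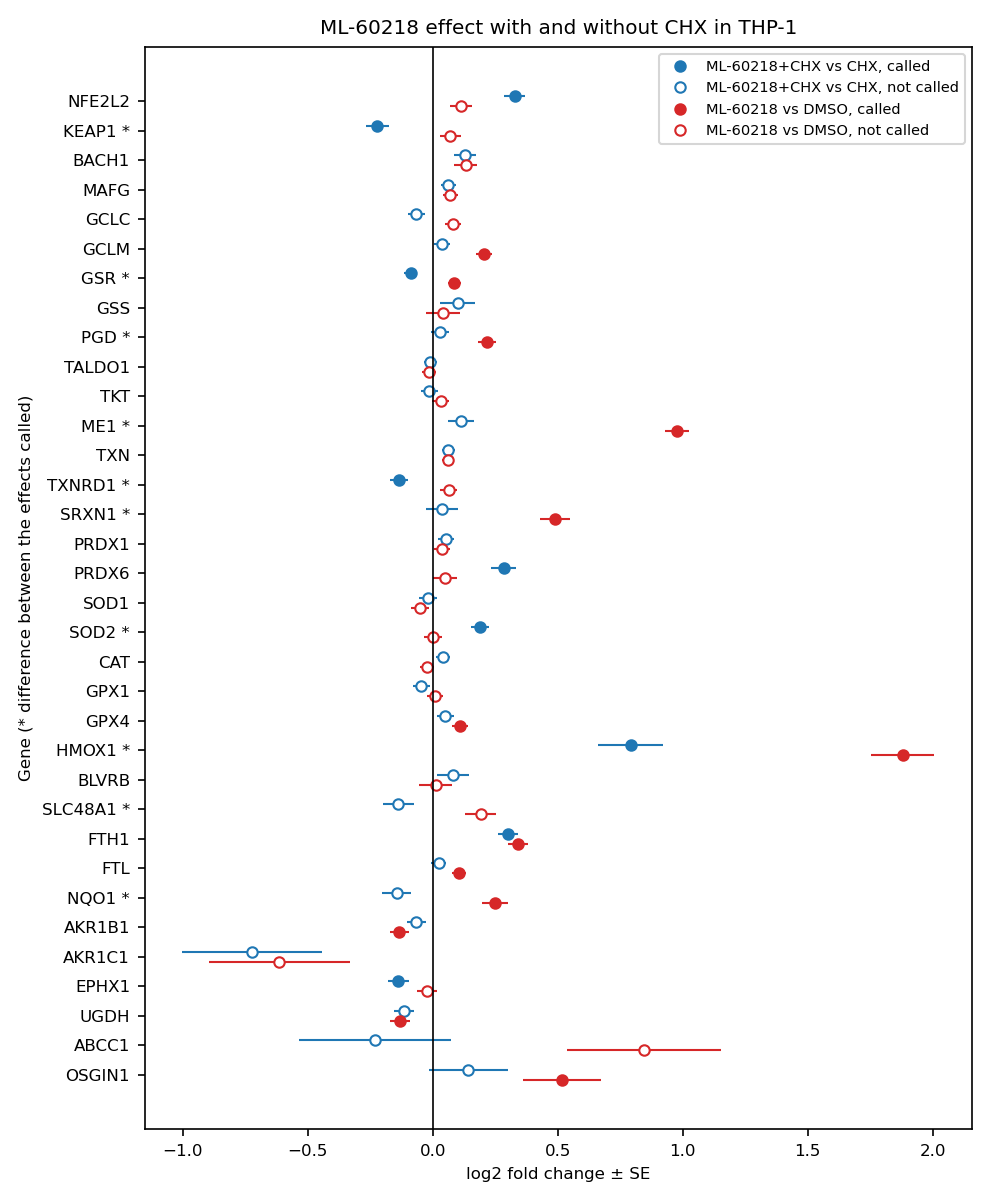
Log2 fold change ± SE (x axis) of ML-60218+CHX against CHX (blue) and of ML-60218 against DMSO (red) for each of the 34 genes (y axis), filled where called; a star marks genes whose effects differed between them. ME1 lies at 0.11 with CHX and 0.98 without, and HMOX1 at 0.79 with CHX and 1.88 without, while FTH1 lies at 0.30 and 0.34.

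In HEK293T cells most of the set was lower in CPM with the POLR3G ASO, by small amounts. Against the scrambled ASO, 25 of 33 genes tested were called (75.8%; 68.5% of all 17098 genes), 4 higher (34.4% of all genes) and 21 lower (63.6%; 34.1% of all genes), with a median log2 fold change of -0.147 over the set and -0.003 over all genes. All 4 genes of NADPH supply fell, as did 4 of 5 of the thioredoxin group and 4 of 5 of haem and iron. In TPM, which entered no test, some of the genes called lower were not lower. TXNRD1 stood at 74.1 ± 1.49 TPM with the POLR3G ASO, against 69.2 ± 1.58 TPM, and PGD at 92.2 ± 2.29, against 90.9 ± 2.26 TPM. Others were lower in both measures, FTH1 standing at 509 ± 28.2 TPM, against 693 ± 11.5 TPM. The calls of these 3 genes held under every alternative. AKR1C1 was too low to be tested in any HEK293T fit.

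The groups did not overlap for 26 of 33 (73.0% of all genes). Among called members only SOD2, upward (19.6% of all genes), and ABCC1, downward (5.91% of all genes), reached 1.5-fold. SOD2 had 646, 662 and 654 CPM in POLR3G ASO libraries, against 325, 342 and 342 CPM in scrambled ASO libraries, 1.94-fold higher without overlap (log2 0.96 ± 0.0243, adjusted p = 2.71e-08). The direction turned with an offset for transcript length, at log2 -0.10 (adjusted p = 0.0025, the highest over the alternatives), and was upward under each of the others. Its reads were spread over transcripts of unequal length. SOD2-210 made up 65.9% ± 0.777 of the gene's TPM with the POLR3G ASO, against 18.9% ± 1.38 with the scrambled ASO (SD, n = 3). SOD2-214, annotated as subject to nonsense-mediated decay, was listed at 0 in all 3 POLR3G ASO libraries, against 38.8 ± 0.597 TPM with the scrambled ASO. SOD2-203 made up 16.5% ± 1.53 with the POLR3G ASO, against 23.8% ± 1.71. Division of reads among these transcripts is the estimate of the authors' tool, and summed per gene the levels were 96.7 ± 0.378 TPM with the POLR3G ASO and 91.7 ± 2.36 TPM with the scrambled ASO.

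**Figure D4:**
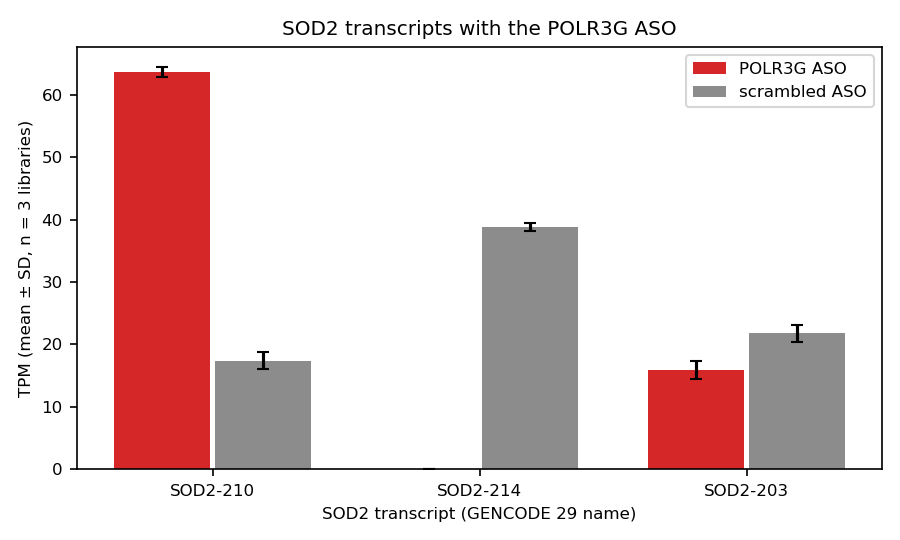
Mean TPM ± SD (y axis, n = 3 libraries) of the 3 main SOD2 transcripts (x axis) with the POLR3G ASO (red, left) and the scrambled ASO (grey, right). SOD2-210 stands at 63.7 TPM with the POLR3G ASO against 17.4 TPM, and SOD2-214 at 0 against 38.8 TPM.

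ABCC1 had 5.72, 7.55 and 5.54 CPM in POLR3G ASO libraries, against 10.9, 10.5 and 11.2 CPM in scrambled ASO libraries, 1.74-fold lower (log2 -0.80 ± 0.118, adjusted p = 0.000274). FTH1 had 275, 285 and 274 CPM in POLR3G ASO libraries, against 402, 415 and 404 CPM in scrambled ASO libraries, 1.47-fold lower (log2 -0.55 ± 0.0231, adjusted p = 1.72e-07). Both genes separated the groups fully. Of the regulators, MAFG had 67.5, 64.2 and 71.5 CPM in POLR3G ASO libraries, against 47.9, 49.3 and 46.4 CPM in scrambled ASO libraries (log2 0.50 ± 0.0433, adjusted p = 9.36e-06). NFE2L2 had 67, 68.8 and 71.7 CPM in POLR3G ASO libraries, against 77.2, 77.8 and 82.2 CPM in scrambled ASO libraries (log2 -0.19 ± 0.0364, adjusted p = 0.00121). The dimer partners thus moved in opposite directions in CPM, whereas in TPM NFE2L2 overlapped between groups, at 39 to 42.1, against 40.5 to 43.7. KEAP1 had 42.4, 39.2 and 41.7 CPM in POLR3G ASO libraries, against 38.4, 40.4 and 38.2 CPM in scrambled ASO libraries (log2 0.08 ± 0.0413, adjusted p = 0.127). BACH1 had 66.2, 62.5 and 57.3 CPM in POLR3G ASO libraries, against 58.3, 60.2 and 59.9 CPM in scrambled ASO libraries (log2 0.06 ± 0.0484, adjusted p = 0.284). In CPM these 2 overlapped between groups. In TPM neither did, KEAP1 standing at 29.2 to 31.2 with the POLR3G ASO, against 23.7 to 25.6, and BACH1 at 16.2 to 18.6, against 14.2 to 15. KEAP1 was called without POLR3G ASO replicate 2 and BACH1 without POLR3G ASO replicate 3 (ranges of adjusted p = 0.0427 to 0.453 and 0.0252 to 0.878).

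HMOX1 had 19, 21.1 and 16.3 CPM in POLR3G ASO libraries, against 15.8, 14 and 14.6 CPM in scrambled ASO libraries (log2 0.34 ± 0.0925, adjusted p = 0.00902), a modest rise. SRXN1 had 43.6, 41.6 and 37.1 CPM in POLR3G ASO libraries, against 34.4, 35.3 and 34.6 CPM in scrambled ASO libraries (log2 0.23 ± 0.056, adjusted p = 0.00515). TXNRD1 had 194, 191 and 184 CPM in POLR3G ASO libraries, against 200, 202 and 201 CPM in scrambled ASO libraries (log2 -0.08 ± 0.0242, adjusted p = 0.0149). SRXN1 was thus higher and the reductase slightly lower in CPM in the same libraries. GCLM had 54.3, 56.7 and 56.4 CPM in POLR3G ASO libraries, against 58.1, 60.7 and 59.4 CPM in scrambled ASO libraries (log2 -0.09 ± 0.0312, adjusted p = 0.0282), a fall lost under 5 of 11 alternatives, among them when any 1 of scrambled ASO replicates 2 and 3 and POLR3G ASO replicate 1 was left out (adjusted p = 0.00612 to 0.0909 over the alternatives). NQO1 had 5.78, 5.39 and 6.06 CPM in POLR3G ASO libraries, against 4.92, 5.47 and 6.13 CPM in scrambled ASO libraries (log2 0.06 ± 0.108, adjusted p = 0.633), with overlapping libraries and a sign that turned without scrambled ASO replicate 1. In TPM its libraries did not overlap, at 5.18 to 6.4 with the POLR3G ASO, against 4 to 4.11. Of the further pathway genes 52 of 67 were called (77.6%; 68.5% of all genes), 12 higher and 40 lower. CHAC1, which degrades glutathione, fell 2.29-fold (log2 -1.19 ± 0.0673), BACH2, a relative of BACH1, 2.13-fold (log2 -1.09 ± 0.0712) and TXNRD2, the mitochondrial thioredoxin reductase, 1.68-fold (log2 -0.75 ± 0.0562), while TXNIP rose 1.88-fold (log2 0.91 ± 0.0297).

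The POLR3G siRNA gave the largest single change in the set. Against its 200 nM control siRNA, 28 of 33 genes were called (84.8%; 74.9% of all 15423 genes), 16 higher (48.5%; 36.8% of all genes) and 12 lower (36.4%; 38.1% of all genes), with a median log2 fold change of 0.043 over the set and -0.020 over all genes. The groups did not overlap for 29 of 33 (77.9% of all genes), and with a fold of at least 1.5, 4 were called higher (14.6% of all genes) and 7 lower (19.3%). In CPM all 5 genes of the thioredoxin group and 3 of 4 of glutathione rose, and 3 of 4 of NADPH supply fell. In TPM, which entered no test, some of the genes called higher were not higher. GSR stood at 73.5 ± 1.88 TPM with the POLR3G siRNA, against 74.9 ± 1.59 TPM, and TXNRD1 at 80.5 ± 1.6, against 84.3 ± 1.09 TPM. HMOX1 had 106, 107 and 98.1 CPM in POLR3G siRNA libraries, against 9.87, 9.53 and 11 CPM in control siRNA libraries. The siRNA libraries were 10.2-fold above the controls with no library between (log2 3.36 ± 0.0567, adjusted p = 4.42e-10). BACH1, its repressor, had 32.7, 30.9 and 31.9 CPM in POLR3G siRNA libraries, against 67.9, 66 and 66.1 CPM in control siRNA libraries, 2.1-fold lower (log2 -1.07 ± 0.0307, adjusted p = 5.4e-09). NFE2L2 had 53.7, 54.1 and 56.8 CPM in POLR3G siRNA libraries, against 95.1, 90.9 and 89.4 CPM in control siRNA libraries, 1.67-fold lower (log2 -0.74 ± 0.0331, adjusted p = 7.23e-08). Both were lower in each siRNA library than in any control. KEAP1 had 42.8, 43.4 and 44.1 CPM in POLR3G siRNA libraries, against 42.8, 41.4 and 42.4 CPM in control siRNA libraries (log2 0.04 ± 0.0283, adjusted p = 0.199). MAFG had 39.4, 33.6 and 36.3 CPM in POLR3G siRNA libraries, against 38.3, 39.1 and 37.2 CPM in control siRNA libraries (log2 -0.07 ± 0.0552, adjusted p = 0.289), overlapping between groups and called lower without POLR3G siRNA replicate 1 (adjusted p = 0.0458, range 0.0458 to 0.951).

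Both subunits of the ligase that starts glutathione synthesis, and thioredoxin, rose with the POLR3G siRNA, whereas GSS, glutathione synthetase, fell 1.32-fold (log2 -0.40 ± 0.0744, adjusted p = 0.000969). GCLM had 111, 110 and 111 CPM in POLR3G siRNA libraries, against 60.6, 62.5 and 64.3 CPM in control siRNA libraries, 1.77-fold higher (log2 0.82 ± 0.0265, adjusted p = 1e-08). GCLC, the catalytic subunit beside it, had 112, 117 and 113 CPM in POLR3G siRNA libraries, against 74.3, 74.5 and 77.3 CPM in control siRNA libraries, 1.51-fold higher (log2 0.60 ± 0.0266, adjusted p = 7.36e-08). TXN had 257, 265 and 248 CPM in POLR3G siRNA libraries, against 143, 141 and 143 CPM in control siRNA libraries, 1.81-fold higher (log2 0.85 ± 0.0261, adjusted p = 7.61e-09). None of the 3 overlapped between groups. SRXN1 had 46.1, 46.3 and 49.4 CPM in POLR3G siRNA libraries, against 36.8, 37.1 and 39.1 CPM in control siRNA libraries (log2 0.33 ± 0.0388, adjusted p = 5.32e-05). TXNRD1 had 212, 216 and 213 CPM in POLR3G siRNA libraries, against 198, 200 and 204 CPM in control siRNA libraries (log2 0.09 ± 0.0194, adjusted p = 0.00243). NQO1 had 5.87, 7 and 6.31 CPM in POLR3G siRNA libraries, against 4.43, 4.37 and 5.1 CPM in control siRNA libraries (log2 0.47 ± 0.103, adjusted p = 0.00292). These rises in CPM were smaller, at up to 1.38-fold, though no group overlapped its control. In TPM, which entered no test, the TXNRD1 libraries were the lower ones, at 78.8 to 82, against 83 to 85.1. Those of NQO1 overlapped in TPM, at 4.78 to 6.18, against 4.92 to 5.75. The call of TXNRD1 was lost under 1 of 11 alternatives, with the length offset (adjusted p = 0.000256 to 0.148 over the alternatives), and that of NQO1 was lost under 1 of 11 alternatives, with the length offset (adjusted p = 0.00248 to 0.182 over the alternatives).

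Other members fell in the same libraries. SOD2 had 147, 148 and 145 CPM in POLR3G siRNA libraries, against 274, 283 and 278 CPM in control siRNA libraries, 1.9-fold lower (log2 -0.92 ± 0.0197, adjusted p = 1.14e-09). ME1 had 36.9, 37 and 35.6 CPM in POLR3G siRNA libraries, against 64.9, 66.5 and 68.5 CPM in control siRNA libraries, 1.83-fold lower (log2 -0.87 ± 0.0312, adjusted p = 1.94e-08). SLC48A1 was 1.54-fold lower (log2 -0.62 ± 0.0546) and ABCC1 1.5-fold lower (log2 -0.59 ± 0.142). Each of these 4 separated the groups. OSGIN1, a member with few reads, fell 2.85-fold (log2 -1.51 ± 0.439), a call lost under 2 of 11 alternatives, among them when control siRNA replicate 3 was left out (adjusted p = 0.00408 to 0.0989 over the alternatives). Of the further pathway genes 56 of 68 were called (82.4%; 74.9% of all genes), 24 higher and 32 lower. SLC7A11 had 22.1, 20.1 and 19.3 CPM in POLR3G siRNA libraries, against 135, 133 and 129 CPM in control siRNA libraries, 6.46-fold lower (log2 -2.69 ± 0.0447). CHAC1 fell 17.5-fold (log2 -4.13 ± 0.0783), SLC40A1 3.37-fold (log2 -1.75 ± 0.0713) and TXNRD2 2.22-fold (log2 -1.15 ± 0.041), and MT1X, a metallothionein, rose 2.02-fold (log2 1.01 ± 0.0727). The cystine importer and both subunits of the ligase that begins glutathione synthesis moved in opposite directions.

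**Figure D5:**
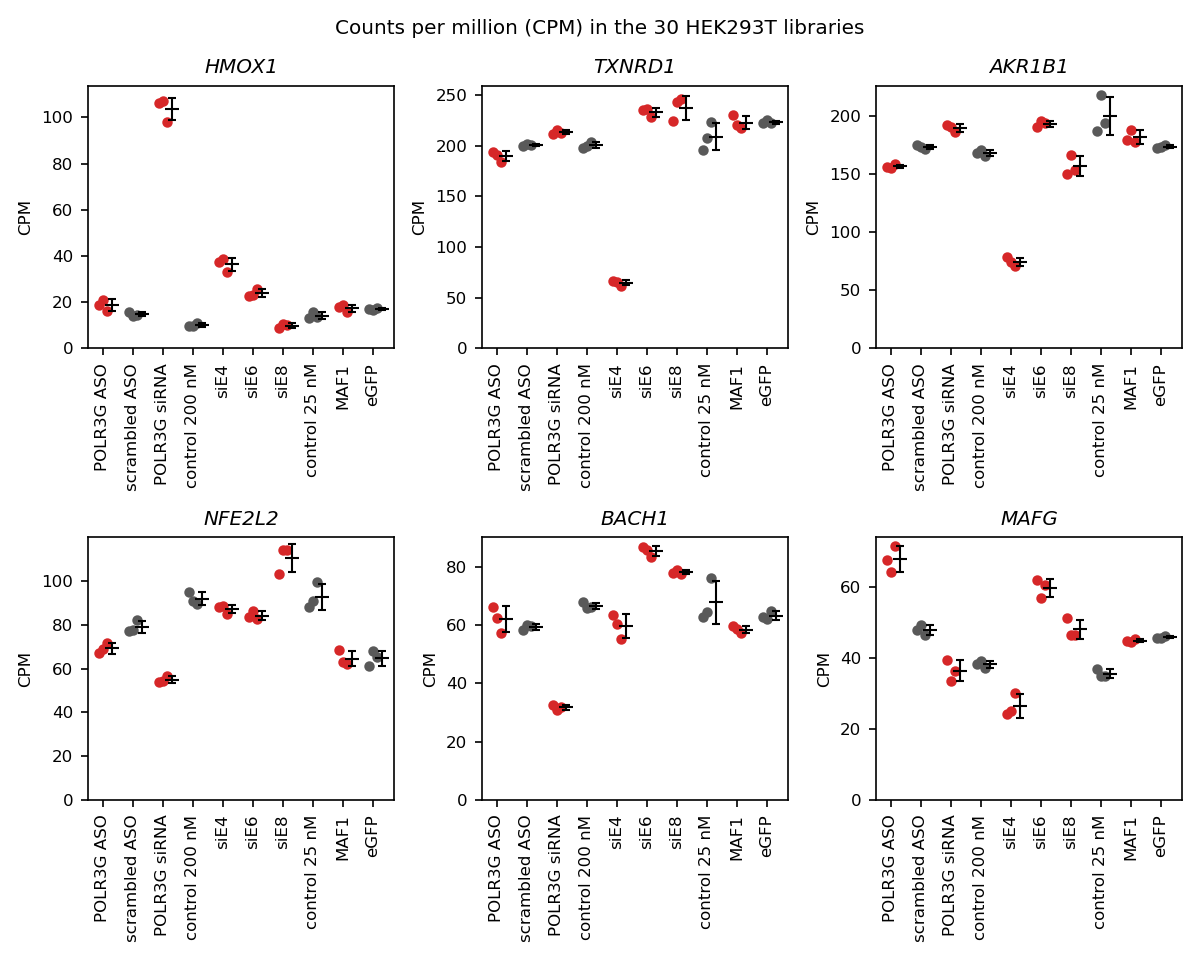
CPM of 6 genes (y axis) in each of the 30 HEK293T libraries, by group (x axis), with treated groups in red left of their control in grey; black marks show mean ± SD (n = 3). HMOX1 stands at 98.1 to 107 CPM with the POLR3G siRNA, and TXNRD1 and AKR1B1 stand at 61.9 to 66.2 and 70.6 to 78.1 CPM with siE4, under the siE6, siE8 and control siRNA libraries scaled with them.

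The 3 POLR3GL siRNAs, which share 1 set of 3 control libraries at 25 nM, gave different patterns, and differences between them were not tested. With siE4, 22 of 33 genes were called (66.7%; 54.9% of all 15573 genes), 11 higher (26.2% of all genes) and 11 lower (28.7%), and 20 did not overlap (60.2%), with a median log2 fold change of 0.025 over the set. With siE6, 23 were called (69.7%; 63.0% of all genes), 21 higher (63.6%; 31.2% of all genes) and 2 lower (31.8%), and 22 did not overlap (67.6%), with a median of 0.250. With siE8, 19 were called (57.6%; 57.7% of all genes), 9 higher (29.1% of all genes) and 10 lower (28.6%), and 19 did not overlap (60.6%), with a median of -0.011. The medians over all genes were -0.021, -0.002 and -0.009. Members called with at least 1.5-fold were 1 higher (6.20% of all genes) and 3 lower (11.1%) with siE4, 5 higher (9.25%) and 0 lower (16.2%) with siE6, and 0 higher (7.29%) and 1 lower (12.6%) with siE8. With siE6 all 5 genes of the thioredoxin group, all 5 of oxidant removal and all 5 of haem and iron rose in CPM. These rises were 1.11-fold to 1.69-fold, although BLVRB, a biliverdin reductase, overlapped its controls. In TPM, which entered no test, some of these genes were not higher. TXNRD1 stood at 81.8 ± 2.91 TPM with siE6, against 87.3 ± 4.69 TPM, and SLC48A1 at 13.5 ± 0.631, against 14.5 ± 0.994 TPM. Others were higher in both measures, SRXN1 standing at 33.2 ± 0.365 TPM, against 25.1 ± 1.37 TPM. The call of BLVRB with siE6 was lost under 4 of 12 alternatives, among them when any 1 of control siRNA replicates 1 and 3 and siE6 replicate 2 was left out (adjusted p = 0.000204 to 0.112 over the alternatives), and that of SLC48A1 was lost under 1 of 12 alternatives, with the length offset (adjusted p = 0.00293 to 0.346 over the alternatives).

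HMOX1 had 37.5, 38.5 and 33.2 CPM with siE4, 22.5, 23.2 and 25.9 CPM with siE6, 8.65, 10.5 and 10.3 CPM with siE8 and 13.1, 15.8 and 13.4 CPM with the control siRNA. It was 2.58-fold higher with siE4 (log2 1.37 ± 0.0939, adjusted p = 6.57e-08), 1.69-fold higher with siE6 (log2 0.76 ± 0.0941, adjusted p = 1.14e-05) and 1.44-fold lower with siE8 (log2 -0.52 ± 0.099, adjusted p = 0.000512). No library of any siRNA overlapped the controls. TXNRD1 had 66.2, 66 and 61.9 CPM with siE4, 235, 236 and 228 CPM with siE6, 224, 243 and 246 CPM with siE8 and 196, 208 and 223 CPM with the control siRNA. It fell 3.24-fold with siE4 (log2 -1.70 ± 0.0536, adjusted p = 8.26e-11). In CPM it was slightly higher with siE6 (log2 0.16 ± 0.0509, adjusted p = 0.0165) and siE8 (log2 0.18 ± 0.051, adjusted p = 0.00794). The rise with siE6 was lost under 4 of 12 alternatives, among them when any 1 of control siRNA replicate 1 and siE6 replicates 1 and 2 was left out (adjusted p = 0.00347 to 0.176 over the alternatives). AKR1B1, which reduces glucose and reactive aldehydes, had 78.1, 74.1 and 70.6 CPM with siE4, 190, 195 and 194 CPM with siE6, 150, 166 and 153 CPM with siE8 and 187, 218 and 194 CPM with the control siRNA. It fell 2.69-fold with siE4 (log2 -1.43 ± 0.0601, adjusted p = 8.56e-10) and 1.28-fold with siE8 (log2 -0.36 ± 0.0582, adjusted p = 0.000147), and did not pass with siE6 (log2 -0.05 ± 0.0578, adjusted p = 0.48). The siE4 libraries were the lowest of the 12 for both TXNRD1 and AKR1B1.

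Glutathione genes split. GSS had 9.57, 10.2 and 12.8 CPM with siE4, 23, 19.1 and 21.7 CPM with siE6, 14, 12 and 11.6 CPM with siE8 and 19.1, 18.5 and 16 CPM with the control siRNA. It fell 1.65-fold with siE4 (log2 -0.72 ± 0.117, adjusted p = 0.000169) and 1.43-fold with siE8 (log2 -0.51 ± 0.116, adjusted p = 0.00198), and with siE6 overlapped the controls (log2 0.25 ± 0.113, adjusted p = 0.0731). GCLM had 80.7, 84 and 83.3 CPM with siE4, 58.3, 60.4 and 55.1 CPM with siE6, 84.7, 92.5 and 91.2 CPM with siE8 and 58.4, 60.7 and 66 CPM with the control siRNA. It rose with siE4 (log2 0.42 ± 0.0529, adjusted p = 1.69e-05) and siE8 (log2 0.54 ± 0.0529, adjusted p = 1.57e-06), and with siE6 overlapped the controls (log2 -0.09 ± 0.0532, adjusted p = 0.163). GPX1 had 97, 87.6 and 81.9 CPM with siE4, 95.6, 108 and 104 CPM with siE6, 60.4, 68.6 and 64 CPM with siE8 and 64.7, 75.3 and 63 CPM with the control siRNA. It rose 1.52-fold with siE6 (log2 0.60 ± 0.0792) and 1.31-fold with siE4 (log2 0.39 ± 0.0796), without overlap. TALDO1, transaldolase of the pentose phosphate pathway, had 130, 126 and 120 CPM with siE4, 187, 199 and 186 CPM with siE6, 141, 162 and 152 CPM with siE8 and 114, 127 and 125 CPM with the control siRNA. It rose 1.56-fold with siE6 (log2 0.64 ± 0.0563) and 1.24-fold with siE8 (log2 0.31 ± 0.0565), the siE6 libraries being the highest. TXN rose 1.48-fold with siE6 (log2 0.57 ± 0.0484) and 1.33-fold with siE4 (log2 0.41 ± 0.0485).

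SRXN1 had 43.6, 45.8 and 43.2 CPM with siE4, 62.5, 66.3 and 63.5 CPM with siE6, 43.3, 47.1 and 46.4 CPM with siE8 and 40, 44.3 and 42.3 CPM with the control siRNA. It rose 1.52-fold with siE6 (log2 0.60 ± 0.0486, adjusted p = 1.87e-07), did not pass with siE4 (log2 0.07 ± 0.0492, adjusted p = 0.269) and missed the threshold with siE8 (log2 0.11 ± 0.0493, adjusted p = 0.0669). With siE8 it was called in the fit with the replicate number as a block and without siE8 replicate 1 or control siRNA replicate 2 (range of adjusted p = 0.0239 to 0.238). NQO1 had 6.25, 6.03 and 6.6 CPM with siE4, 4.04, 4.9 and 4.43 CPM with siE6, 4.23, 4.57 and 4.04 CPM with siE8 and 4.19, 5.01 and 5.35 CPM with the control siRNA. It rose with siE4 (log2 0.38 ± 0.113, adjusted p = 0.0125), a call lost under 1 of 12 alternatives, when control siRNA replicate 1 was left out (adjusted p = 0.00881 to 0.0533 over the alternatives), and not with siE6 (log2 -0.12 ± 0.114, adjusted p = 0.376) or siE8 (log2 -0.18 ± 0.115, adjusted p = 0.198), where the length offset called it lower (adjusted p = 0.0474, range 0.0474 to 0.504). ABCC1 had 12.9, 12.5 and 14.7 CPM with siE4, 11, 12.8 and 11.8 CPM with siE6, 6.06, 7.35 and 7.82 CPM with siE8 and 11.8, 9.92 and 10.2 CPM with the control siRNA. It fell 1.5-fold with siE8 (log2 -0.59 ± 0.109, adjusted p = 0.000426), where its libraries did not overlap the controls, and rose with siE4 (log2 0.33 ± 0.106, adjusted p = 0.0171), a call lost under 3 of 12 alternatives, when any 1 of control siRNA replicates 2 and 3 and siE4 replicate 3 was left out (adjusted p = 0.00916 to 0.0823 over the alternatives).

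Of the 4 regulators, 3 were called lower with siE4, 3 higher and 1 lower with siE6, and all 4 higher with siE8. NFE2L2 had 88.1, 88.7 and 85.1 CPM with siE4, 83.6, 86.3 and 82.7 CPM with siE6, 103, 114 and 114 CPM with siE8 and 88.1, 90.8 and 99.5 CPM with the control siRNA. It rose with siE8 (log2 0.25 ± 0.0522, adjusted p = 0.00115), fell with siE6 (log2 -0.14 ± 0.0524, adjusted p = 0.0321) and did not pass with siE4 (log2 -0.09 ± 0.0525, adjusted p = 0.175). In TPM, which entered no test, its siE4 libraries lay under the controls, at 46 to 47.8, against 53.6 to 61.3. The fall with siE6 was lost under 6 of 12 alternatives, among them when any 1 of control siRNA replicate 3 and siE6 replicates 1 and 3 was left out (adjusted p = 0.0157 to 0.158 over the alternatives). KEAP1 had 31.9, 31.4 and 31.4 CPM with siE4, 50.4, 53.1 and 52 CPM with siE6, 48.8, 59.3 and 56.3 CPM with siE8 and 44.3, 47.5 and 45.8 CPM with the control siRNA. It fell 1.45-fold with siE4 (log2 -0.54 ± 0.0614, adjusted p = 7.18e-06) and rose with siE6 (log2 0.18 ± 0.0598, adjusted p = 0.0203) and siE8 (log2 0.26 ± 0.06, adjusted p = 0.00247). KEAP1 was not higher in TPM with siE6, at 29.5 ± 0.503, against 29.5 ± 0.272 with the control siRNA. The rise with siE6 was lost under 2 of 12 alternatives, when any 1 of control siRNA replicate 1 and siE6 replicate 2 was left out (adjusted p = 0.00826 to 0.0704 over the alternatives).

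BACH1 had 63.6, 60.4 and 55.3 CPM with siE4, 87, 86 and 83.5 CPM with siE6, 77.9, 79 and 77.6 CPM with siE8 and 62.7, 64.4 and 76.3 CPM with the control siRNA. It rose with siE6 (log2 0.33 ± 0.0672, adjusted p = 0.000704) and siE8 (log2 0.21 ± 0.0675, adjusted p = 0.0191). With siE4 it was called lower although its libraries overlapped the controls in CPM (log2 -0.18 ± 0.068, adjusted p = 0.0363). In TPM, which entered no test, the siE4 libraries lay under the controls, at 15.1 to 15.6, against 18.3 to 22.1. Those of siE6 and siE8 overlapped the controls in TPM, at 20.8 to 23.3 and 21.9 to 24.3. The call with siE4 was lost under 7 of 12 alternatives, among them when any 1 of control siRNA replicate 3 and siE4 replicates 2 and 3 was left out (adjusted p = 0.0135 to 0.174 over the alternatives). The call with siE8 was lost under 3 of 12 alternatives, when any 1 of control siRNA replicates 1 and 2 and siE8 replicate 2 was left out (adjusted p = 0.000465 to 0.087 over the alternatives). MAFG had 24.1, 25.1 and 30.2 CPM with siE4, 61.9, 57 and 60.5 CPM with siE6, 51.2, 46.5 and 46.4 CPM with siE8 and 37, 34.8 and 34.8 CPM with the control siRNA. It rose 1.68-fold with siE6 (log2 0.75 ± 0.0727, adjusted p = 1.09e-06) and 1.35-fold with siE8 (log2 0.43 ± 0.0734, adjusted p = 0.000203) and fell 1.34-fold with siE4 (log2 -0.42 ± 0.0753, adjusted p = 0.000358), without overlap.

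Of 67 further pathway genes tested, siE4 gave 43 calls, 18 higher and 25 lower (64.2%; 54.9% of all genes). There were 47 with siE6, 27 higher and 20 lower (70.1%; 63.0% of all genes), and 41 with siE8, 21 higher and 20 lower (61.2%; 57.7% of all genes). CHAC1 fell 9.69-fold with siE4 (log2 -3.28 ± 0.125), 6.41-fold with siE6 (log2 -2.68 ± 0.12) and 3.05-fold with siE8 (log2 -1.61 ± 0.113). SLC7A11 fell 2.61-fold with siE4 (log2 -1.38 ± 0.0743), 3.19-fold with siE6 (log2 -1.67 ± 0.0751) and 1.6-fold with siE8 (log2 -0.68 ± 0.0725). FECH, which inserts iron into haem, fell 4.68-fold with siE4 (log2 -2.23 ± 0.209), and TXNIP 3.85-fold (log2 -1.94 ± 0.0716), while SESN3 rose 2.51-fold (log2 1.33 ± 0.0673). SLC40A1 fell 2.04-fold with siE6 (log2 -1.03 ± 0.0845) and 3.27-fold with siE8 (log2 -1.71 ± 0.0882). CBR3, a carbonyl reductase, fell 2.49-fold with siE6 (log2 -1.32 ± 0.129) and GSTA4, a glutathione transferase, 1.92-fold with siE8 (log2 -0.94 ± 0.0537). BACH2 fell with siE6 (log2 -0.93 ± 0.0794) and siE8 (log2 -0.91 ± 0.0798). Effects that share controls are not independent of one another.

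With MAF1 overexpression 0 of 33 genes were called by edgeR's quasi-likelihood test, and 0 by DESeq2. Of all 15543 genes edgeR called 0.0386%, 0.0322% higher and 0.00643% lower, and with at least 1.5-fold 0.0257% higher and 0.00643% lower. At an unadjusted p under 0.05 there were 4 of 33, a count with no share of all genes beside it. Of the set 9 did not overlap between groups, as was so for 16.0% of all genes. HMOX1 had 17.8, 18.6 and 15.8 CPM in MAF1 libraries, against 17.1, 16.8 and 17.6 CPM in eGFP libraries (log2 0.02 ± 0.0672, adjusted p = 0.943). NFE2L2 had 68.5, 62.8 and 62.3 CPM in MAF1 libraries, against 61.1, 67.9 and 65.4 CPM in eGFP libraries (log2 -0.01 ± 0.0501, adjusted p = 0.981). TXNRD1 had 230, 220 and 218 CPM in MAF1 libraries, against 222, 225 and 222 CPM in eGFP libraries (log2 -0.00496 ± 0.0282, adjusted p = 0.969). All 3 overlapped between groups. NQO1 had 4.99, 5.68 and 4.85 CPM in MAF1 libraries, against 5.13, 5.24 and 5.3 CPM in eGFP libraries (log2 -0.01 ± 0.0906, adjusted p = 0.972). GCLM had 66.9, 69.3 and 65.9 CPM in MAF1 libraries, against 65.2, 64.6 and 68.9 CPM in eGFP libraries (log2 0.02 ± 0.0357, adjusted p = 0.854). SRXN1 had 39.6, 37.1 and 37.9 CPM in MAF1 libraries, against 41, 39.3 and 38.3 CPM in eGFP libraries (log2 -0.05 ± 0.041, adjusted p = 0.711). These too overlapped. KEAP1 had 37.8, 39.9 and 39.9 CPM in MAF1 libraries, against 39.6, 40.1 and 38.2 CPM in eGFP libraries (log2 -0.00437 ± 0.038, adjusted p = 0.981). BACH1 had 59.6, 58.7 and 57.2 CPM in MAF1 libraries, against 62.8, 62.2 and 65 CPM in eGFP libraries (log2 -0.11 ± 0.0319, adjusted p = 0.409). MAFG had 44.8, 44.5 and 45.3 CPM in MAF1 libraries, against 45.7, 45.7 and 46.1 CPM in eGFP libraries (log2 -0.03 ± 0.0297, adjusted p = 0.765). The groups of BACH1 and MAFG lay apart by 1.08-fold and 1.02-fold, with MAF1 libraries the lower ones. Of the further pathway genes 0 of 67 were called and 10 were at an unadjusted p under 0.05. The share of all genes at that p is not given here, so neither count at an unadjusted p can be read as a trait of its list.

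Across the 9 pairs of groups HMOX1 was called higher in 6, lower in 1 and not called in 2. SOD2 was called higher in 5 and lower in 2, with the reservation given above for the ASO. GSS was called lower in 4 and higher in 0, GPX1 higher in 2 and lower in 0, and AKR1B1, EPHX1 and SLC48A1 each lower in 5 and higher in 1. NFE2L2 was called higher in 3 and lower in 3. Of all genes 54.9% to 74.9% were called in each of the CHX, ASO and siRNA pairs, so calls in several pairs were common. With ML-60218 it was 15.5% without CHX and 16.5% with it, and with MAF1 0.0386%. The same tally over all genes was not made. These pairs share control libraries in part, and the counts are given as a description.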

How the data were processed

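Per the file headers, the authors deposited an estimated count (reads) and a TPM value for each of 194142 transcripts in 42 libraries. Per the submitters' processing notes, the tools named were bcl2fastq 2.20, Trim Galore, Salmon and DESeq2, with the build hg38, and reads came from stranded polyA libraries sequenced for 151 cycles from both ends, per the labels. Libraries held 32705684 to 52568088 reads.

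Transcripts were matched by identifier to GENCODE 29. The match covered 81.6% of transcripts and 91.1% of reads (8.06 to 9.54% of each library was unmatched and not used). The estimated counts of a gene's transcripts were added up and rounded to whole numbers. SESN2 was not analysed here, and a second SOD2 identifier was kept apart. Each experiment was fitted alone with edgeR 4.0.16 (R 4.3.3; quasi-likelihood F test after TMM scaling and filterByExpr, Benjamini-Hochberg adjustment over all genes tested), called at an adjusted p under 0.05. The SE is the log2 fold change divided by the square root of F. TPM served for comparing genes. The fit was also run on simulated data with 200 changed genes, and the outcome is not given here. Far more genes were called in every comparison but MAF1, so that setting differs from most of the data. Alternatives were DESeq2 1.42.0, its size factors, no filter, a replicate block, an offset for mean transcript length, only the 2 groups compared and each replicate left out.

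The members and lists were chosen with earlier results of these data known. Values per library were given for up to 10 members per THP-1 comparison and 5 per HEK293T comparison, those of largest change called with at least 1.5-fold and a mean of 5 CPM, and always for NFE2L2, KEAP1, BACH1, MAFG, HMOX1, NQO1, GCLM, TXNRD1 and SRXN1. From the further pathway list up to 5 called genes of largest change with that mean were named.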

Additional observations from a re-analysis of the deposited data

Results flagged for a closer look

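The effect of ML-60218 on 10 members and 7 further pathway genes differed between THP-1 cells with CHX and without it, in a test of the difference itself (edgeR's quasi-likelihood test, 3 libraries per group). Each value here is the log2 effect with CHX minus that without. It was -1.09 for HMOX1, -0.86 for ME1, -0.45 for SRXN1, -0.39 for NQO1, -0.33 for SLC48A1, -0.29 for KEAP1, -0.20 for TXNRD1, -0.19 for PGD, -0.17 for GSR and 0.19 for SOD2. Among the 5 further pathway genes of largest difference that averaged at least 5 CPM it was -1.06 for SLC7A11, -0.33 for GSK3B, a kinase that phosphorylates NRF2, 0.36 for LRP8, 0.41 for SLC40A1 and 0.46 for TFRC. HMOX1 and SLC7A11 had the largest of these differences in size. The call of GSK3B was lost under 10 of 17 alternatives, when any 1 of DMSO replicates 1, 2 and 3, CHX replicates 1, 2 and 3, ML-60218 replicates 1 and 2 and ML-60218+CHX replicates 1 and 3 was left out (highest adjusted p = 0.107). The calls of LRP8, SLC40A1 and TFRC held under all 17.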

How the results depend on the processing

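Over 258 pairs of a named gene and a comparison, 222 were called, of which 177 kept call and direction under every alternative, 44 lost the call under at least 1 and 1 turned. SOD2 with the POLR3G ASO turned to -0.10 with the length offset. Of the uncalled pairs 10 were called under some alternative and 10 turned sign. BACH1 in the difference of ML-60218 effects was at 0.005 with DESeq2, 0.0047 with its size factors, 0.0074 with no filter and -0.05 to 0.03 with 1 replicate left out. MAFG there was at 0.00084 with no filter and -0.03 to 0.01 with 1 replicate left out, and NQO1 with the ASO was at -0.02 to 0.14 with 1 replicate left out and at 0.29 with the length offset. With MAF1 the length offset gave 0.07 for KEAP1, 0.01 for MAFG and -0.09 for GCLM. Leaving out 1 replicate there gave -0.05 to 0.03 for NFE2L2, -0.02 to 0.02 for KEAP1, -0.03 to 0.01 for TXNRD1, -0.03 to 0.09 for HMOX1 and -0.09 to 0.03 for NQO1.

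With ML-60218 against DMSO, 8 members were called with no filter and 8 to 10 with 1 replicate left out, and of all genes 1520 to 2174, the lowest without ML-60218 replicate 2, against 2380. With ML-60218+CHX, 1465 of all genes were called with the length offset and 1644 to 2289 with 1 replicate left out, the lowest without ML-60218+CHX replicate 3, against 2529. The difference of effects gave 458 of all genes and 5 members with the length offset, and 620 to 1092 of all genes and 6 to 9 members with 1 replicate left out, against 1006 and 10. Of all genes 620 were called without CHX replicate 1, 641 without CHX replicate 3 and 648 without ML-60218 replicate 2. With MAF1, 31 of all genes were called by DESeq2, 11 with no filter and 2 to 9 with 1 replicate left out (2 without MAF1 replicate 2 and 3 without MAF1 replicate 3), against 6. The cause of these changes was not tested.

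Deviations of same-numbered replicates correlated at -0.141 to 0.14 and those of other replicates at -0.117 to 0.128, so the numbers were not read as pairs. Between ML-60218 and ML-60218+CHX, however, same-numbered values were 0.0376 to 0.0797 and the others -0.0571 to -0.0139. In the ASO pair same-numbered values were 0.00369 to 0.0573 and the others -0.0666 to 0.013. With the replicate number as a block the members called were 12 (ML-60218), 8 (ML-60218+CHX), 27 (CHX), 7 (difference of effects), 25 (ASO), 27 (POLR3G siRNA), 20, 23 and 20 (siE4, siE6, siE8) and 0 (MAF1). Shares of all genes called in those fits are not given here, so these counts cannot be read as a trait of the set.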
